A study of Mus musculus with 12 samples.

Results

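The Wnt-driven genes of the pericentral liver were read in 12 mouse livers that differed in Mtdh genotype and in whether the mouse bore a mammary tumor. They are 10 genes chosen by name, Wnt2, Wnt9b, Rspo3, Lgr5, Rnf43, Znrf3, Axin2, Tbx3, Glul and Slc1a2, out of 22557 genes in the deposited table, by a rule that set no threshold on measured values. All 10 were found and all 10 passed the filter on low values. In none of the 7 comparisons did any of them pass the test (limma, adjusted p under 0.05), so what follows gives their levels, their spread and the limits on each difference.

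The liver lobule is divided into zones between the portal tract, where blood enters, and the central vein, where it leaves. Endothelial cells of the central vein secrete Wnt2, Wnt9b and the Wnt amplifier Rspo3, and the hepatocytes beside them answer through β-catenin and TCF factors. That signal keeps the innermost hepatocytes in a perivenous program, of which glutamine synthetase (Glul) is the classic marker, and it is held in check by feedback genes that it induces itself.

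The 4 groups were KO_tumor, livers of Mtdh knockout mice with a Py8119 tumor; WT_tumor, livers of wild-type mice with that tumor; KO_no_tumor, livers of Mtdh knockout mice without a tumor; and WT_no_tumor, livers of wild-type mice without a tumor. Py8119 is a mouse mammary tumor cell line. All mice were female and age-matched, and each group held 3 libraries from different mice, made from ribosome-depleted RNA of ground whole liver. How the knockout allele was made and in which cells it acts is not given in the sources used here. Values are read numbers scaled by the authors' size factors, called normalized values below, and fold changes are log2 differences of the value plus 1. The series asks how Mtdh of the host acts on liver lipid metabolism and on CD8 T cells, and the comparisons below set tumor against no tumor and KO against WT.

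Mtdh itself averaged 588.7 in KO_tumor against 4982 in WT_tumor, and 549.3 in KO_no_tumor against 4892 in WT_no_tumor, with no overlap between genotypes. Albumin lay between 2070000 and 3870000 in every library, so every library carried the main hepatocyte transcript. A pair of libraries stood apart. KO_tumor replicate 1 had an estimated 12700000 reads and 14899 genes above 0, against 25700000 to 43000000 reads and 17772 to 20365 genes in the others, and it held the lowest value of 7 of the 10 genes. In KO_no_tumor replicate 3 small nucleolar RNAs took 4.84% of the total, against at most 1.23% elsewhere. Values without these libraries are given where leaving them out moved a result. The pair was picked from measured values of these same data, and every value without both libraries depends on that pick. For the correlations and for the median and signs of the 10 genes, the choice to leave them out was also made after the data were seen.

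The genes span a wide range of abundance. Per kilobase of exon, the mean over the 12 libraries was 5737 ± 1318 (SD) for Glul and 726 ± 450 for Slc1a2. Tbx3 followed at 186 ± 82.4, Rnf43 at 152 ± 40.4 and Znrf3 at 143 ± 41.7. The mean ± SD of these 3 overlapped, with the SD taken over all groups, and whether they differ within libraries was not tested. Rspo3 at 72.0 ± 26.1 and Lgr5 at 58.6 ± 27.3 also overlapped, as did Wnt2 at 29.1 ± 19.2 and Axin2 at 28.1 ± 16.2. Wnt9b was the least abundant of the 10, at 3.77 ± 3.04. The enzyme and the transporter of the perivenous program thus lay at the top of the order and the endothelial Wnt ligands toward the bottom.

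**Figure D1:**
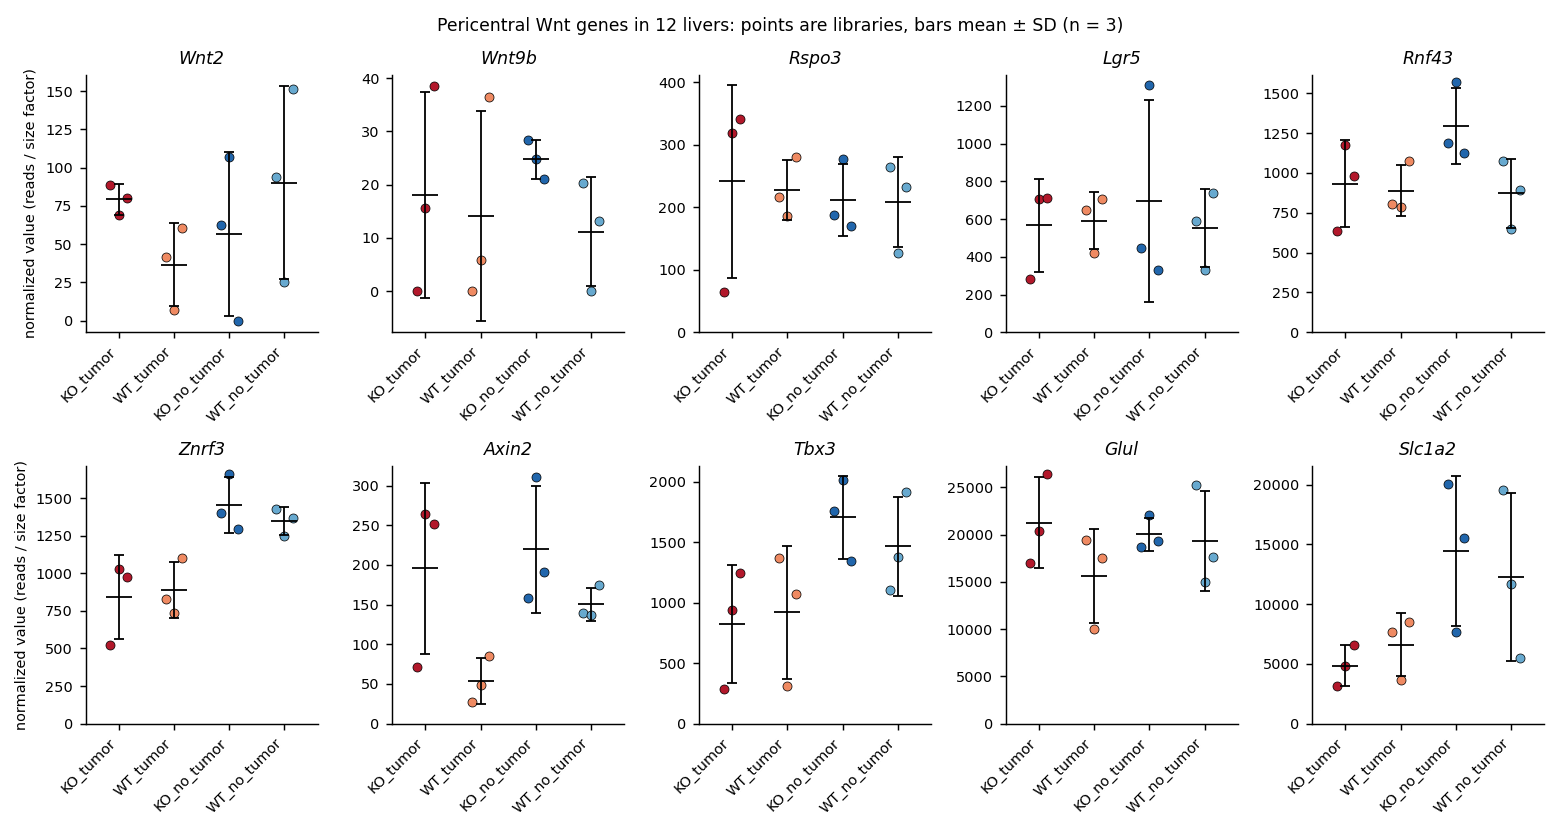
Normalized value (reads divided by size factor, vertical axes from about 0, a scale of its own for each gene) of the 10 genes in KO_tumor, WT_tumor, KO_no_tumor and WT_no_tumor. Points are libraries and bars are the mean ± SD of 3. Znrf3 lies at 520 to 1099 in the 6 tumor livers and at 1245 to 1658 in the 6 livers without a tumor, and Axin2 is lowest in WT_tumor, at 27.4 to 85.2.

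The short promoter windows were searched for the TCF motif, since β-catenin reaches its targets through TCF factors. RefSeq windows of 300 bases on GRCm38.p6, from 250 before to 50 after each start, were used for 6 of the 10 genes, 7 windows in all (Axin2, Glul, Slc1a2, Wnt2, Wnt9b and a pair for Rnf43). CTTTGAT occurred, on either strand, in 3.73% of 32851 windows and CTTTGAA in 5.14%, and either of them in 8.65%. Among the 7 windows 1 held a match, that of Slc1a2, with CTTTGAT on the minus strand from 207 to 201 bases before the start. It is shown beside the stretch at the same distance in Glul, the more abundant gene, with the motif in capitals. Both are on the plus strand, at chr2:102706201-102706267 and chr1:153899692-153899758 of GRCm38.p6.
Slc1a2: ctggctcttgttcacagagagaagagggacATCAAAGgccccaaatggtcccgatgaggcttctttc
Glul: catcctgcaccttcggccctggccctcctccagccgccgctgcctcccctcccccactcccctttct
A match is a string of letters and not a measured binding site, and its absence concerns these windows alone.

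The ligands come first. Wnt2 (mm39, chromosome 6, 17988939 to 18030585, minus strand) is a secreted Wnt protein of central vein and sinusoidal endothelium. It measured 88.8, 68.9 and 80.0 in the KO_tumor libraries and 41.8, 7.2 and 60.9 in the WT_tumor libraries. It measured 62.4, 107 and 0 in KO_no_tumor and 93.7, 25.2 and 151 in WT_no_tumor. The KO_tumor and WT_tumor values did not overlap, whereas those without a tumor spanned the whole range of the gene. The fold change of KO_tumor over WT_tumor was 1.52 ± 1.42 (SE), with a 95% interval of -1.52 to 4.55 and an adjusted p of 0.607. It was 0.63 without WT_tumor replicate 2. The library listed at 0 is KO_no_tumor replicate 3, and the fold change of KO_no_tumor over WT_no_tumor of -1.93 became 0.19 without it.

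Wnt9b (chromosome 11, 103618190 to 103640648, minus strand), the other central vein Wnt, was near the limit of these libraries. It was listed at 0 in 1 library each of KO_tumor, WT_tumor and WT_no_tumor, and no value exceeded 38.5. In KO_no_tumor it measured 28.4, 24.8 and 21.05, against 20.3, 0 and 13.3 in WT_no_tumor. Those groups did not overlap, but the values correspond to an estimated 30, 33 and 16 reads in KO_no_tumor and 18, 0 and 14 reads in WT_no_tumor, and the 95% interval of the fold change ran from -1.54 to 5.39.

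Rspo3 (chromosome 10, 29328412 to 29411864, minus strand) encodes R-spondin 3, which binds Lgr receptors and removes the Rnf43 and Znrf3 brake. It averaged 242 ± 154 in KO_tumor, 228 ± 48.6 in WT_tumor, 212 ± 57.9 in KO_no_tumor and 208 ± 72.2 in WT_no_tumor (SD, n = 3 each). The KO_tumor libraries measured 64.1, 319 and 342, and the lowest of them is the shallow library. Without it the fold change of KO_tumor over KO_no_tumor was 0.67 in place of -0.11, so that 1 library set its sign. An unnamed gene model, Gm20276, overlaps Rspo3 on the same strand and measured at most 68.6.

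Lgr5 (chromosome 10, 115286216 to 115423686, minus strand), the R-spondin receptor that marks pericentral hepatocytes, is where the signal is received. It measured 284, 706 and 714 in KO_tumor and 647, 419 and 707 in WT_tumor. It measured 445, 1309 and 330 in KO_no_tumor and 588, 329 and 737 in WT_no_tumor. All 4 groups overlapped, and the highest and the second lowest of the 6 values without a tumor came from the same group. The fold change of tumor over no tumor, averaged over genotypes, was 0.00 with a 95% interval of -0.75 to 0.75. Without KO_tumor replicate 1 it was 0.22.

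The feedback ligases had the smallest standard errors of the 10 genes. Znrf3 (chromosome 11, 5226324 to 5394848, minus strand) and Rnf43 (chromosome 11, 87553548 to 87626366, plus strand) encode related membrane E3 ligases that clear Frizzled receptors from the cell surface. Znrf3 measured 520, 1029 and 972 in KO_tumor and 829, 737 and 1099 in WT_tumor. It measured 1402, 1658 and 1298 in KO_no_tumor and 1425, 1245 and 1371 in WT_no_tumor. Every tumor liver lay below every liver without a tumor, in both genotypes. Such a separation of 6 against 6 in the lower direction was seen in 0.909% of the 17380 genes tested, and Znrf3 was the 1 member that showed it. Averaged over genotypes the fold change was -0.73 ± 0.18 (SE), with a 95% interval of -1.12 to -0.34 and an adjusted p of 0.0726, which does not pass 0.05. Without KO_tumor replicate 1 it was -0.57, with an adjusted p of 0.0813.

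Rnf43 measured 639, 1178 and 980 in KO_tumor and 808, 786 and 1075 in WT_tumor. It measured 1187, 1571 and 1126 in KO_no_tumor and 1076, 646 and 893 in WT_no_tumor. The tumor livers spanned nearly the same range as the WT_no_tumor livers, and the KO_no_tumor livers lay above WT_no_tumor. That last difference was 0.59 ± 0.27, with a 95% interval of 0.02 to 1.16 and an adjusted p of 1.0, and it was 0.68 without both libraries that stand apart. A non-coding gene on the same strand, 1110028F11Rik, overlaps Rnf43 and measured at most 73.0.

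Within a library, Rnf43 was 1.23, 1.14 and 1.01 times Znrf3 in KO_tumor and 0.974, 1.07 and 0.978 times in WT_tumor. It was 0.847, 0.948 and 0.867 times Znrf3 in KO_no_tumor and 0.755, 0.519 and 0.651 times in WT_no_tumor. The 6 tumor livers thus lay above the 6 livers without a tumor in this ratio, which does not depend on the size factors. The ratio was chosen after the values were seen and is given with no test.

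Axin2 (chromosome 11, 108811175 to 108841610, plus strand), a scaffold of the β-catenin destruction complex, is the usual readout of Wnt activity. It measured 71.5, 264 and 252 in KO_tumor and 27.4, 48.2 and 85.2 in WT_tumor. It measured 159, 311 and 191 in KO_no_tumor and 140, 137 and 174 in WT_no_tumor. WT_tumor held the 2 lowest values of all 12 libraries and lay wholly below WT_no_tumor, whereas KO_tumor overlapped both WT_tumor, through its shallow library, and KO_no_tumor. The fold change of KO_tumor over WT_tumor was 1.78 ± 0.56 (95% interval 0.57 to 2.99) with an adjusted p of 0.213. That of WT_tumor over WT_no_tumor was -1.61 ± 0.56 (95% interval -2.82 to -0.40) with an adjusted p of 0.343. Both rest on the same WT_tumor libraries, in which Axin2 had an estimated 38, 67 and 77 reads.

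Without KO_tumor replicate 1 the difference of Axin2 between KO_tumor and WT_tumor was 2.39, with an adjusted p of 0.112. It was 1.38 without WT_tumor replicate 1, and that of WT_tumor over WT_no_tumor was then -1.21. Across the alternatives the limma adjusted p reached 0.583 for KO_tumor over WT_tumor and 0.831 for WT_tumor over WT_no_tumor. Whether the tumor effect on Axin2 differed between genotypes was tested as an interaction, which gave 1.28 ± 0.80 with an adjusted p of 0.859. With a weight estimated for each library, Axin2 passed the test in both pairs, at 2.65 (adjusted p = 0.00175) for KO_tumor over WT_tumor and -1.98 (adjusted p = 0.016) for WT_tumor over WT_no_tumor. The number of all genes called grew with it, to 1664 and 510.

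Tbx3 (chromosome 5, 119808734 to 119822790, plus strand) encodes a T-box repressor that is a β-catenin target in liver. It measured 289, 937 and 1248 in KO_tumor and 1373, 311 and 1076 in WT_tumor. It measured 1762, 2014 and 1342 in KO_no_tumor and 1106, 1377 and 1917 in WT_no_tumor. KO_tumor lay wholly below KO_no_tumor, and 1 library in each tumor group was under 320. The fold change averaged over genotypes was -1.08 ± 0.38 with an adjusted p of 0.191. That of KO_tumor over KO_no_tumor was -1.27 and became -0.64 without KO_tumor replicate 1, and that of WT_tumor over WT_no_tumor was -0.89 and became -0.23 without WT_tumor replicate 2. An antisense RNA, Tbx3os1, overlaps the gene and measured 2.47 to 117, and the use of strand in counting is not given in the sources used here.

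Glul (chromosome 1, 153775690 to 153785470, plus strand) makes glutamine from glutamate and ammonia in the last rows of hepatocytes before the vein. It measured 17010, 20360 and 26450 in KO_tumor and 19410, 10020 and 17470 in WT_tumor. It measured 18710, 22040 and 19330 in KO_no_tumor and 25280, 15030 and 17660 in WT_no_tumor. All groups overlapped in every pair compared. The fold change of KO_tumor over KO_no_tumor was 0.07 with a 95% interval of -0.53 to 0.66, and that of KO_tumor over WT_tumor was 0.48 with an interval of -0.12 to 1.07. The minus-strand gene Teddm2 overlaps Glul and measured at most 45.4. In whole liver, fewer cells of a type and less RNA per cell cannot be told apart, for Glul as for the other genes.

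Slc1a2 (chromosome 2, 102489004 to 102621130, plus strand), a high-affinity glutamate transporter of the same perivenous cells, had the highest coefficient of variation over the 12 libraries after Wnt9b and Wnt2, at 61.9%. It measured 3122, 4859 and 6605 in KO_tumor and 7683, 3616 and 8518 in WT_tumor. It measured 20090, 7670 and 15510 in KO_no_tumor and 19570, 11700 and 5514 in WT_no_tumor. KO_tumor lay wholly below KO_no_tumor, while WT_tumor and WT_no_tumor overlapped. The fold change of KO_tumor over KO_no_tumor was -1.53 ± 0.47 (95% interval -2.53 to -0.52) with an adjusted p of 0.327. Averaged over genotypes the fold change was -1.17 ± 0.33 with an adjusted p of 0.111, and without KO_tumor replicate 1 it was -1.02 with an adjusted p of 0.18.

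The enzyme and the transporter were also set against each other within each library. Glul was 5.45, 4.19 and 4.01 times Slc1a2 in KO_tumor and 2.53, 2.77 and 2.05 times in WT_tumor. It was 0.931, 2.87 and 1.25 times Slc1a2 in KO_no_tumor and 1.29, 1.28 and 3.20 times in WT_no_tumor. KO_tumor lay above all 9 other livers. Axin2 amounted to 0.420%, 1.30% and 0.951% of Glul in KO_tumor and 0.141%, 0.481% and 0.488% in WT_tumor, against 0.554% to 1.41% in the 6 livers without a tumor. These ratios too were chosen after the values were seen, and they carry no test.

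**Figure D2:**
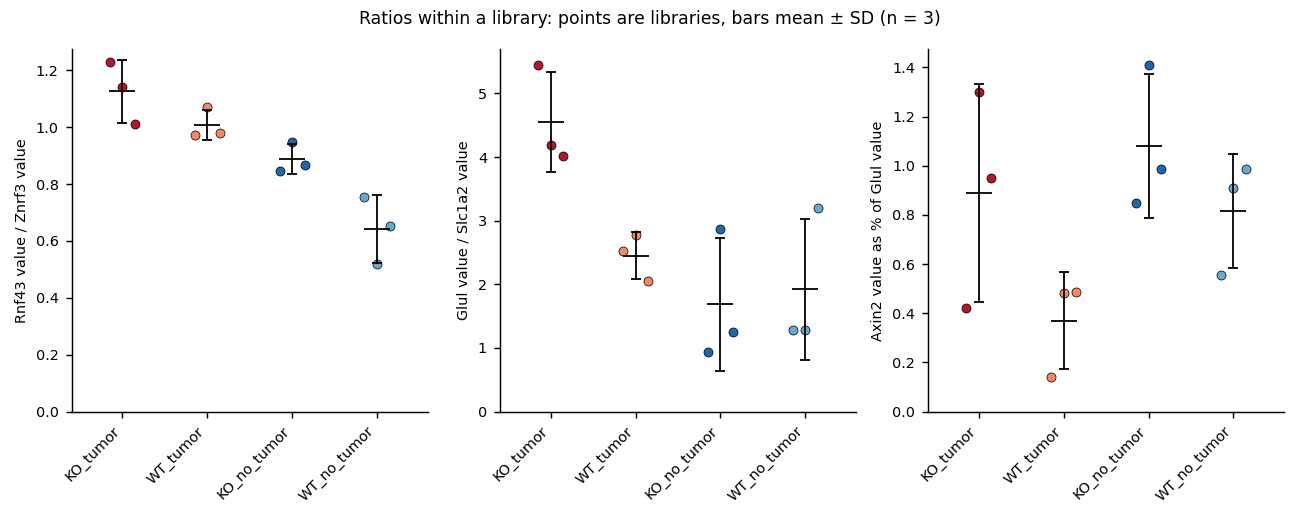
Ratios of normalized values within each library, by group: Rnf43 over Znrf3, Glul over Slc1a2, and Axin2 as a percent of Glul (vertical axes from 0). Points are libraries and bars the mean ± SD of 3. Rnf43 over Znrf3 is 0.974 to 1.23 in tumor livers and 0.519 to 0.948 without a tumor, and Glul over Slc1a2 is 4.01 to 5.45 in KO_tumor and at most 3.20 elsewhere.

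Taken by comparison, the effect of the tumor was asked first within each genotype. In KO_tumor over KO_no_tumor 0 of the 10 passed limma with Benjamini-Hochberg adjustment, as did 0% of all genes tested, and 3 had an unadjusted p under 0.05 (Znrf3, Slc1a2 and Tbx3) against a background of 12.7%. Those 3 were also the members whose groups did not overlap, all lower, which 9.48% of genes did. In WT_tumor over WT_no_tumor 0 of 10 passed, against 0.679% of all genes, and 2 had an unadjusted p under 0.05 (Axin2 and Znrf3) against 8.67%. The same 2 did not overlap in the lower direction, as 8.05% of genes did. The median fold change of the 10 was -0.41 in KO_tumor over KO_no_tumor and -0.47 in WT_tumor over WT_no_tumor, against -0.08 and 0.00 for all genes. Without KO_tumor replicate 1 the median in KO_tumor over KO_no_tumor was 0.11, and Znrf3 gave -0.53 there in place of -0.84. The median in WT_tumor over WT_no_tumor was -0.91 to -0.18 without 1 library at a time.

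Averaged over genotypes, tumor over no tumor, 0 of 10 passed against 1.06% of all genes. An unadjusted p under 0.05 was found for 4 of them (Znrf3, Slc1a2, Tbx3 and Axin2) against 15.1% of all genes. In this comparison 8 of the 10 fold changes were negative, with a median of -0.48 against -0.04 for all genes. The exceptions were Wnt2 at 0.35 ± 1.0 and Rspo3 at 0.03 ± 0.39, and Wnt9b gave -0.82 ± 1.14. These values and the median moved when single libraries were left out. Without KO_tumor replicate 1 the median was -0.08, with 7 of 10 negative, Rspo3 at 0.42 and Wnt9b at -0.04. Without KO_no_tumor replicate 3 Wnt2 was -0.71, with all 10 negative and a median of -0.74. Without both the median was -0.38, with 8 of 10 negative as in the main fit. Other libraries moved it too, to -0.21 without WT_tumor replicate 1 and -0.28 without WT_no_tumor replicate 1.

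The effect of the knockout was asked within each tumor state. In KO_tumor over WT_tumor 0 of 10 passed, against 0.023% of all genes, and Axin2 alone had an unadjusted p under 0.05, against 14.4%. Groups did not overlap for 1 member, Wnt2, in the higher direction, which 8.11% of genes did. In KO_no_tumor over WT_no_tumor 0 of 10 passed, against 0.00575% of all genes, with Rnf43 alone under an unadjusted 0.05 against 1.93%. Rnf43 and Wnt9b did not overlap in the higher direction, as 3.56% of genes did. Here 9 of the 10 fold changes were positive, with a median of 0.19 against -0.01, the exception being Wnt2, which was positive without KO_no_tumor replicate 3. Without KO_no_tumor replicate 2, 7 of the 10 were positive, with a median of 0.06. Without WT_no_tumor replicate 2, 6 were positive, with a median of 0.13, so the count of signs rests on single libraries.

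Averaged over tumor states, KO over WT, 0 of 10 passed against 0.0115% of all genes, and Axin2 alone had an unadjusted p under 0.05 against 10.3%. Groups did not overlap for 0 of the 10, against 0.414% of genes. The fold change of Axin2 was 1.14 ± 0.40, with an adjusted p of 0.41. It was 1.48 without both libraries that stand apart and 0.94 without WT_tumor replicate 1. The median of the 10 was 0.02, against -0.08 for all genes, and it was 0.33 without KO_tumor replicate 1 and 0.43 without both libraries. Without WT_tumor replicate 2 or KO_tumor replicate 3 it was -0.09, so 1 library could change its sign. In the interaction 0 of 10 passed, as did 0% of all genes, and 0 had an unadjusted p under 0.05, against 4.7%. No difference in tumor effect between the genotypes was therefore detected for any member, although the intervals were wide, as that of Wnt2 from -0.85 to 7.74 shows.

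**Figure D3:**
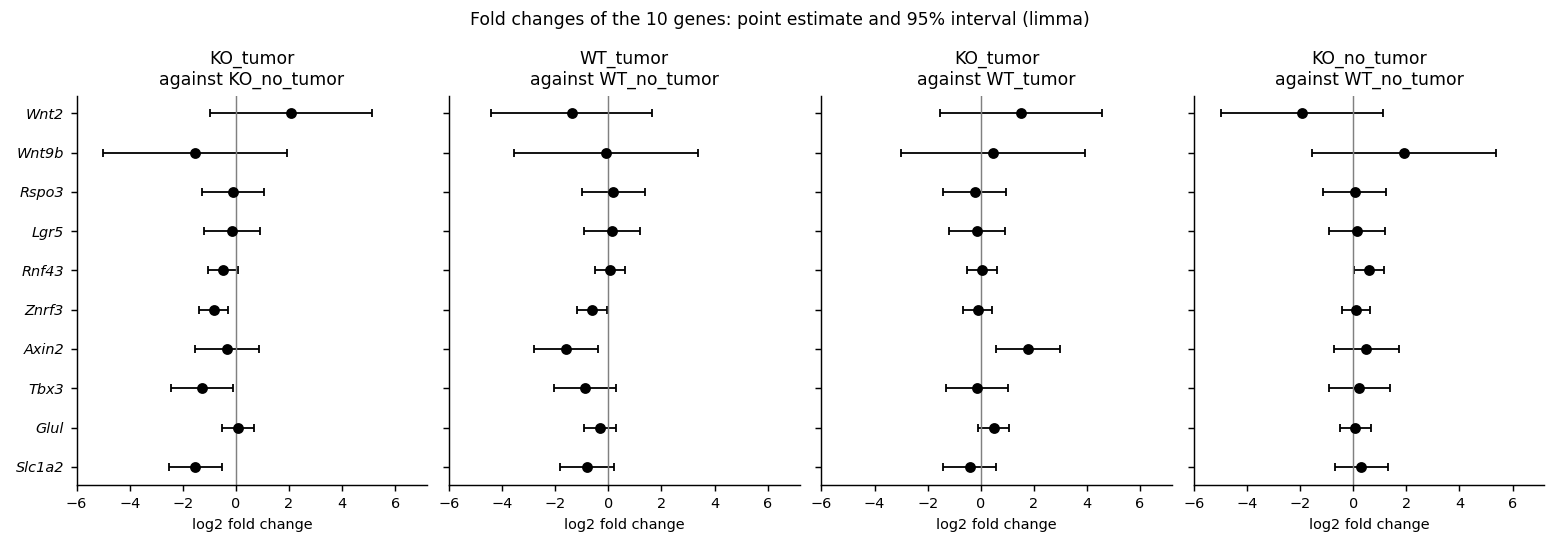
Log2 fold change of the 10 genes (horizontal axis, points) with its 95% interval from limma (bars) in 4 comparisons of groups of 3 libraries, the first-named group over the second. Wnt2 and Wnt9b have the widest intervals, and Znrf3 and Slc1a2 lie below 0 with their whole interval in KO_tumor over KO_no_tumor, at -0.84 and -1.53.

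The levels of some members were correlated across livers. After subtraction of group means over the 12 libraries, Pearson's r of log2 values was 0.94 between Znrf3 and Rspo3, 0.90 between Rnf43 and Rspo3, 0.88 between Rnf43 and Znrf3 and 0.88 between Axin2 and Znrf3. The feedback genes and the R-spondin so varied together among mice of 1 group. Glul and Slc1a2 gave 0.59, and Lgr5 and Slc1a2 -0.10. Without KO_tumor replicate 1, over 11 libraries, the first 4 pairs gave 0.78, 0.93, 0.83 and 0.70, Glul and Slc1a2 0.53, and Lgr5 and Slc1a2 -0.35. Axin2 and Rspo3 then fell from 0.81 to 0.51, and Axin2 and Rnf43 from 0.78 to 0.59. These values are descriptions without a test, and the libraries share size factors.

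Among the tested genes with a mean of at least 50, the gene most like each member in its level across the 12 libraries was found by Pearson's r of log2 values, for the 9 members that reach that mean. Gulo, which encodes the last enzyme of ascorbate synthesis, was most like Glul, with r = 0.877. Usp45 was most like Znrf3 (r = 0.972), Kdm1a most like Axin2 (0.936), Ttc39b most like Slc1a2 (0.951) and St14 most like Tbx3 (0.959). No member was the closest gene of another, and the highest of so many correlations over 12 libraries is high by selection.

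Among the 24 other pericentral hepatocyte genes, 1 passed the test, in the tumor comparisons. Slc13a3, a sodium-coupled dicarboxylate transporter, averaged 1357 ± 636 in WT_tumor and 182 ± 95.5 in WT_no_tumor, a rise of 2.89 ± 0.48 with an adjusted p of 0.015. In KO_tumor it averaged 508 ± 226 and in KO_no_tumor 338 ± 95.1. Without 1 library at a time that rise was 2.49 to 3.36, and it did not pass without WT_tumor replicate 1, WT_tumor replicate 3 or WT_no_tumor replicate 2 (adjusted p up to 0.0968). The other 23 did not pass in any comparison. Tumor over no tumor gave the list a median of -0.12, against -0.48 for the 10 Wnt genes and -0.04 for all genes. That -0.12 was -0.25 to -0.04 without 1 library at a time, -0.03 without both libraries that stand apart and 0.07 with library weights.

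In KO over WT averaged over tumor states, 0 of the 24 passed, while 21 had a positive fold change with a median of 0.40, against 43.3% positive and a median of -0.08 among all genes. Without both libraries that stand apart the median was 0.46. Cyp1a2, a perivenous drug-metabolizing enzyme that depends on β-catenin, averaged 3900 ± 649 in KO_tumor against 2079 ± 243 in WT_tumor, and 4758 ± 470 in KO_no_tumor against 3947 ± 1430 in WT_no_tumor. Its fold change was 0.62 ± 0.18 with an adjusted p of 0.369. Cyp2e1, the perivenous ethanol-oxidizing enzyme, gave 0.45 ± 0.25 with an adjusted p of 0.544. The summed level of the list was 368000 to 392000 in KO_no_tumor against 278000 to 322000 in WT_no_tumor, and 282000 to 471000 in KO_tumor against 228000 to 357000 in WT_tumor.

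The 19 periportal genes, from the opposite end of the lobule, had 0 past the test in each comparison. In KO over WT 13 of them were positive, with a median of 0.17. Positive values in KO livers were thus found on both sides of the lobule, and whether the lists differ was not tested. Cyp2f2, a periportal cytochrome, gave 0.89 ± 0.29 (adjusted p = 0.395) and Hal, which breaks down histidine, 0.39 ± 0.27 (adjusted p = 0.601).

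**Figure D4:**
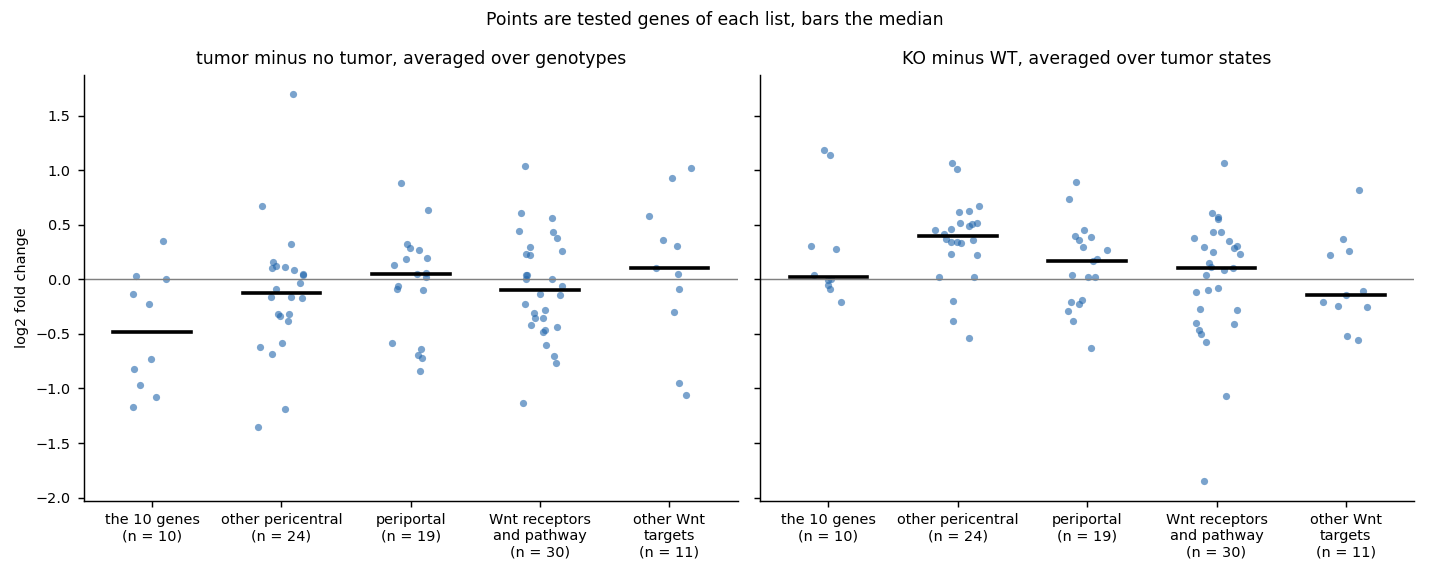
Log2 fold change (vertical axis) of each tested gene in the 10 Wnt genes and 4 other lists, for tumor minus no tumor and for KO minus WT, each averaged over the other factor. Points are genes and bars the median of a list. In the tumor panel the 10 genes have a median of -0.48 and the 24 other pericentral genes -0.12, and in the KO panel these medians are 0.02 and 0.40.

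The remaining parts of the pathway were measured where they were expressed. Of 33 Wnt receptors and intracellular components 30 were tested and 0 passed in any comparison. Lgr4, the second R-spondin receptor of hepatocytes, averaged 2888 ± 340 in KO_tumor, 3015 ± 444 in WT_tumor, 2944 ± 317 in KO_no_tumor and 3175 ± 262 in WT_no_tumor. Ctnnb1, which encodes β-catenin, averaged 6122 ± 557 in KO_tumor, 5684 ± 514 in WT_tumor, 5006 ± 552 in KO_no_tumor and 5120 ± 722 in WT_no_tumor. The KO_tumor livers lay above the KO_no_tumor livers in Ctnnb1 without overlap, a difference of 0.29 ± 0.17 with an adjusted p of 0.46. Of the 30 genes, 3 lay higher without overlap in that pair and 7 lower. Among all genes 9.48% lay lower, and the share that lay higher is not given here. Lgr4 overlapped in every pair. Tcf7l2, the main TCF factor of the liver, averaged 707 ± 214 in KO_tumor, 1078 ± 292 in WT_tumor, 1310 ± 217 in KO_no_tumor and 1484 ± 247 in WT_no_tumor. Its tumor fold change averaged over genotypes was -0.70 ± 0.19 with an adjusted p of 0.0941. In KO_tumor over KO_no_tumor it lay lower without overlap, at -0.92 ± 0.27 with an adjusted p of 0.324.

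Of 14 other Wnt targets 11 were tested and 0 passed. Notum, a secreted enzyme that inactivates Wnt proteins and is itself induced by Wnt, averaged 583 ± 92.4 in KO_tumor against 245 ± 40.7 in WT_tumor, and 474 ± 151 in KO_no_tumor against 368 ± 132 in WT_no_tumor. Its fold change of KO_tumor over WT_tumor was 1.25 ± 0.33 with an adjusted p of 0.162, in the pair in which Axin2 gave 1.78. The intracellular feedback gene Nkd1 gave 0.28 ± 0.76 and the transcription factor Sp5 -1.10 ± 1.32 in that pair. Of the 11 targets 5 were positive and 6 negative there, with a median of -0.04 against -0.12 for all genes, and Tcf7 and Cd44 gave -0.94 and -0.83. Of 20 other Wnt ligands and R-spondins 5 were tested, and of 13 secreted inhibitors 6, with 0 past the test in either list. Of 16 genes of glutamine, glutamate and ammonia handling 14 were tested and 1 passed, the neutral amino acid transporter Slc1a4. It averaged 1143 ± 289 in WT_tumor against 285 ± 46.8 in WT_no_tumor, a rise of 1.98 ± 0.42 with an adjusted p of 0.0448, while its family member Slc1a2 gave -0.81 ± 0.47 in the same pair. The value of Slc1a4 was 1.79 to 2.13 without 1 library at a time, and its call was lost in 8 of 12 such fits, among them those without any 1 of the 6 WT libraries.

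The ligands come from endothelium, so its markers were read beside them. In tumor over no tumor averaged over genotypes all 18 endothelial markers had a positive fold change, with a median of 0.45, and 1 passed, the sinusoidal lectin Clec4g (0.90 ± 0.15, adjusted p = 0.0136). Of all genes tested 46.8% were positive there, with a median of -0.04, and 1.06% passed. Within genotypes, 16 endothelial markers were positive in WT_tumor over WT_no_tumor (median 0.41) and 18 in KO_tumor over KO_no_tumor (median 0.45). The summed level of the endothelial markers was 25800 to 33400 in KO_tumor and 22800 to 28800 in WT_tumor, against 18300 to 21300 in KO_no_tumor and 15700 to 23500 in WT_no_tumor. Of 5 central vein markers Selp passed, at 2.97 ± 0.56 (adjusted p = 0.0241), and that list summed to 555 to 1070 in KO_tumor, 973 to 2440 in WT_tumor, 654 to 879 in KO_no_tumor and 518 to 882 in WT_no_tumor. All 5 central vein markers were positive in WT_tumor over WT_no_tumor (median 1.26), against 2 in KO_tumor over KO_no_tumor (median -0.40). Selp, the adhesion molecule P-selectin, is also carried by platelets and inflamed vessels. Of 11 stellate cell and fibroblast markers 9 were positive averaged over genotypes, with a median of 0.55. Dcn (1.17 ± 0.14, adjusted p = 0.00167) and Pdgfrb (1.39 ± 0.23, adjusted p = 0.0109) passed there. Col3a1 passed in WT_tumor over WT_no_tumor, at 1.5, a call lost in 4 of 12 fits without 1 library. It averaged 1371 ± 466 in KO_tumor and 1559 ± 164 in KO_no_tumor. The list summed to 16200 to 21200 in KO_tumor and 20600 to 25300 in WT_tumor, against 12400 to 14500 in KO_no_tumor and 12200 to 15100 in WT_no_tumor. Rspo3, made by both cell types, gave 0.03 ± 0.39 in tumor over no tumor averaged over genotypes, and 0.42 without KO_tumor replicate 1. The hepatocyte markers summed to 3290000 to 4900000 in KO_tumor and 3800000 to 4540000 in WT_tumor, against 3290000 to 3560000 in KO_no_tumor and 2980000 to 3410000 in WT_no_tumor. Of 9 hepatocyte markers 7 were positive averaged over genotypes, with a median of 0.20. The fibrinogen chain Fgb alone passed (1.09 ± 0.20, adjusted p = 0.0187), and its call was lost in 4 of 12 fits without 1 library. The call of Clec4g was lost without KO_tumor replicate 3 or KO_no_tumor replicate 1 (adjusted p up to 0.0537), that of Selp in 6 of 12 fits without 1 library (up to 0.0759), and those of Dcn and Pdgfrb in 0 of 12.

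Markers of blood cells and mammary epithelium were read in the same comparison, in which 46.8% of all genes were positive and 1.06% passed. All 9 Kupffer cell and macrophage markers had a positive fold change, with a median of 0.55, and 0 passed. They summed to 7580 to 12500 in KO_tumor and 7570 to 11100 in WT_tumor, against 5150 to 10200 in KO_no_tumor and 4660 to 9960 in WT_no_tumor. Of 8 neutrophil markers 5 were tested, all positive with a median of 2.71, and 0 passed. Within genotypes, 5 were positive in WT_tumor over WT_no_tumor (median 3.98) and 3 in KO_tumor over KO_no_tumor (median 0.59). That list summed to 74.0 to 213 in KO_tumor and 271 to 532 in WT_tumor, against 25.0 to 90.5 in KO_no_tumor and 13.5 to 77.9 in WT_no_tumor. All 7 erythroid markers were positive, with a median of 1.28, and Alas2, the heme synthesis enzyme of red cell precursors, passed (1.11 ± 0.23, adjusted p = 0.0393). Within genotypes, 7 were positive in WT_tumor over WT_no_tumor (median 1.64) and 3 in KO_tumor over KO_no_tumor (median -0.03). The erythroid markers summed to 2460 to 11900 in KO_tumor and 6320 to 10600 in WT_tumor, against 2470 to 4320 in KO_no_tumor and 2170 to 4270 in WT_no_tumor. Of 7 tested mammary epithelium markers 3 were positive, with a median of -0.03, and the keratin Krt18 passed (0.92 ± 0.20, adjusted p = 0.0406). Within this list Krt18 averaged 1447 ± 214 in KO_no_tumor and 1562 ± 345 in WT_no_tumor. Livers without a tumor carried it too, so it does not mark tumor cells alone. That list summed to 2660 to 6030 in KO_tumor and 4310 to 5480 in WT_tumor, against 2370 to 2770 in KO_no_tumor and 2170 to 2910 in WT_no_tumor. The calls of Alas2 and Krt18 were lost in 9 and 8 of 12 fits without 1 library. The T and B cell markers (4 of 7 positive, median 0.28) and cholangiocyte markers (5 of 7, median 0.50) had 0 past the test. Of the T and B cell markers, 6 were positive in WT_tumor over WT_no_tumor (median 0.83) and 1 in KO_tumor over KO_no_tumor (median -0.49). The part of cell makeup in the values of the 10 genes was not tested.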

How the data were processed

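The deposited table holds 1 value per gene and library, matched to samples by the description in the labels. The values are a normalized signal, which the authors made from read numbers and DESeq2 size factors, going by the name of the deposited table. STAR 2.7.8a, Partek, DESeq2 and mm39 are named in the submitters' processing notes, and the counter, annotation release, filters and strandedness were not given in the sources used here. Whole reads were not recovered (77.4% to 84.5% of values up to 20 reads were whole within 0.01), so no count model was used. Estimated reads are values divided by a library's smallest value above 0.3 found 100 or more times.

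The filter kept 17380 genes that reached a value of 10 in 3 or more libraries. A limma fit (3.58.1, R 4.3.3, lmFit and eBayes with trend) took log2 of the value plus 1 in all 12 libraries together. P-values are two-sided, Benjamini-Hochberg adjusted over all genes in each of 7 comparisons, with a threshold of 0.05. Overlap and likeness were computed over the same genes. Exon lengths come from GENCODE M21, promoters from RefSeq. The test was tested on simulated data. The members and lists were chosen with earlier results of these data known. Named were the members, Mtdh, fixed genes of each list, up to 4 genes per list past the test, and the genes most like each member.

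Replicate numbers showed no pairing of the mice: over 18 pairs of same-numbered libraries the correlation of deviations was -0.094 to 0.10, with 0 pairs over 0.1. Over 36 pairs with different numbers it was -0.103 to 0.146. The numbers are those of the sample titles, and these correlations cannot exclude a pairing. Alternatives were another pseudocount, no filter, rescaling to a common total, quantile normalization, robust eBayes, library weights, protein-coding genes alone, the libraries of a comparison alone, a replicate block, and libraries left out.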

Additional observations from a re-analysis of the deposited data

How the results depend on the processing

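The count of members past the test stayed at 0 of 10 in every comparison under all alternatives but 2. With library weights it was 1 in KO_tumor over WT_tumor, in WT_tumor over WT_no_tumor, in tumor averaged over genotypes and in KO averaged over tumor states (Axin2 in 3 of these, Znrf3 at an adjusted p of 0.00825 in the tumor average). With 1 library left out it was 0 to 1 in tumor averaged over genotypes, the 1 being Znrf3 at -0.82 without KO_tumor replicate 2, and the cause was not tested. With the replicate block it was 0 in all 7 comparisons, and the numbers showed no pairing of the mice.

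Listed genes past the test in any comparison moved more. Among other pericentral genes they were 1, and 10 with library weights, 2 without both libraries that stand apart and 0 to 2 without 1 library (Slc13a3 passed in no comparison without WT_tumor replicate 1 or 3). Periportal genes were 0, and 6 with library weights. Other Wnt targets were 0, and 3 with library weights and 0 to 1 without 1 library. Receptors and intracellular genes were 0, and 8 with library weights, 1 without both libraries and 0 to 2 without 1 library. Other ligands were 0, and 1 with library weights. Secreted inhibitors were 0, and 2 with library weights, 0 to 1 without 1 library, and 1 (Dkk3) with a pseudocount of 10, rescaling, quantile normalization, robust eBayes, protein-coding genes alone or without both libraries. Glutamine genes were 1, and 4 with library weights, 0 with rescaling, 0 with the replicate block and 0 to 2 without 1 library, so the call of Slc1a4 rests on the margin. The causes were not tested.

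Of 1510 member values under alternatives, 149 had another sign than the main value. Neither value passed the test in any of them, and they are not counted as reversals. The libraries of a comparison alone were fitted for the 4 pairs of groups. In WT_no_tumor Wnt9b had an estimated 0 to 18 reads, and each group held 3 mice.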
